A study of Mus musculus with 9 samples.

Results

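The melanocyte pigment genes described here are Pmel, Tyr, Tyrp1, Dct, Mlana, Mitf, Kit, Sox10, Slc45a2 and Oca2, measured in newborn mouse epidermis. Probe sets were taken when the annotation of the Affymetrix mouse array gave one of these 10 genes as the only symbol, which selected 19 of 45037 probe sets. The arrays were 4 of Alox12b-KO mice and 5 of wildtype mice, each labelled a biological replicate. The Alox12b-KO mice lack the 12R-lipoxygenase that oxidises acylceramides of the skin barrier. Pups of both groups came from matings of heterozygous Alox12b knockout mice and were killed at birth, and the labels give the strain 129S6 for the wildtype pups and no strain for the Alox12b-KO pups. Trunk epidermis was lifted from the dermis after 30 s in saline at 56 °C, so each sample was a bulk sheet in which keratinocytes dominate, and nothing in the labels describes an enrichment of melanocytes. In such a sheet, fewer melanocytes and less RNA per melanocyte cannot be told apart.

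Melanocytes descend from the neural crest and reach the epidermis and the hair follicles as melanoblasts. They make melanin in melanosomes and hand these to keratinocytes. Sox10 and Mitf are transcription factors that switch on the pigment genes, the receptor Kit with its ligand Kitl supports melanoblast survival and migration, and the enzymes Tyr, Tyrp1 and Dct carry out melanin synthesis on fibrils built from Pmel.

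Promoter sequence is shown first for the 3 melanin enzymes and for Mitf, since MITF is known to act on the enzyme genes through an element called the M-box, and cAMP signalling on the melanocyte promoter of Mitf through a cAMP response element. The windows come from RefSeq on GRCm38.p6, each with 250 bases before and 50 bases after a transcript start, and 6 of the 10 genes had one. The Tyr window is chr7:87493463-87493762 on the minus strand, the Tyrp1 window chr4:80833963-80834262 on the plus strand, the Dct window chr14:118052197-118052496 on the minus strand, and the Mitf window chr6:97991533-97991832 on the plus strand, the most downstream of 3 listed Mitf starts. Each is written 5′ to 3′. Capitals mark the M-box string TCATGTGCT in the enzyme genes and the cAMP response element string TGACGTCA in Mitf.
Tyr: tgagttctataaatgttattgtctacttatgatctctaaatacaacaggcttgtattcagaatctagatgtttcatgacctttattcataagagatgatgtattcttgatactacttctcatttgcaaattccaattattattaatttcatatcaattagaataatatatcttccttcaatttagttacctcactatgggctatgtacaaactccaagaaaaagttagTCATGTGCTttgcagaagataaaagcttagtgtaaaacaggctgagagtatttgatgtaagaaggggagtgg
Tyrp1: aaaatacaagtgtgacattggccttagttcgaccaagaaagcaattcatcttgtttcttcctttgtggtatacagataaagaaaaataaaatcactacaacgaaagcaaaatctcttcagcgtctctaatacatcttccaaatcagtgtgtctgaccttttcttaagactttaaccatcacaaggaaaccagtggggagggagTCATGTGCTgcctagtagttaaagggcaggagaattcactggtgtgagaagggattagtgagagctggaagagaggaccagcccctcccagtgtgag
Dct: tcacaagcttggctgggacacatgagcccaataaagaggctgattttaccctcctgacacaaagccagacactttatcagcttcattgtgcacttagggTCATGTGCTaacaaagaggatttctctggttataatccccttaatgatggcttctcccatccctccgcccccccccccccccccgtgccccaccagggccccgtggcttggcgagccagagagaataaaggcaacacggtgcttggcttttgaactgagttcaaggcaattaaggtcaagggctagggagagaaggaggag
Mitf: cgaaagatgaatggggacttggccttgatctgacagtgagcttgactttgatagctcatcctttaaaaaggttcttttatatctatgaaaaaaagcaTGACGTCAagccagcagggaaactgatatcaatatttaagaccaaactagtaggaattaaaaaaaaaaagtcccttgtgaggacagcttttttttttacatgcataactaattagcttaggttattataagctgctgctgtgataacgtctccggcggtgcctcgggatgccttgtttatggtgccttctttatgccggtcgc

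The 3 enzyme windows share the same 9 letters at different distances from the start. TCATGTGCT begins 22 bases before the start in Tyr, 47 before it in Tyrp1 and 151 before it in Dct. On either strand, it occurs in 0.408% of all 32851 promoter windows. The shorter string CATGTG, which lies inside it, occurs in 14.2% of windows on either strand and has a second copy in Dct and 1 copy in Oca2. CACGTG, the E-box string read alike on both strands, is in 7.15% of windows and in none of the members' 9 windows. TGACGTCA, also read alike on both strands, begins 153 bases before the Mitf start shown and occurs in 1.79% of windows. These are matches of letters and not measured binding.

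All values below are log2 expression values as deposited, and differences are Alox12b-KO minus wildtype on that scale. Levels of different probe sets are not compared, because each has its own background. Probe sets of the Y-linked genes Eif2s3y, Kdm5d and Uty read between 1.72 and 3.28 on the 5 arrays with high Xist, where they have no target. Of the 19 melanocyte probe sets, 6 stayed below 3.28 on every array, but no detection calls were used here and this is no detection limit for another probe set. Alox12b itself, on its only probe set 1418266_at, read 10.84 to 11.60 on Alox12b-KO arrays and 10.56 to 11.32 on wildtype arrays. The deleted stretch of the gene is not stated in the labels, so this is no check of the genotypes. Xist was high on all 4 Alox12b-KO arrays and on wildtype array 4 only, so genotype and sex overlapped almost completely.

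No melanocyte probe set changed between genotypes past the threshold of 0.05 on the adjusted p in limma, a linear model with the spread shared across all probe sets. This gave 0 of 19, where 1.11% of all probe sets passed. At an unadjusted p under 0.05 in limma there were 3 of 19, where 16.3% of all probe sets were. These were a probe set each of Tyrp1, Kit and Sox10. All were higher in Alox12b-KO, where 6.98% of all probe sets were higher at that level. The difference was above 0 for 18 of 19 melanocyte probe sets, with a median of 0.30, beside 56.2% of all probe sets with a median of 0.03. For dim probe sets, those with a mean under 4 over the 9 arrays, the share above 0 was 66.9%, and 14 of the 19 melanocyte probe sets were dim. Without Alox12b-KO array 4 and wildtype array 5 the count above 0 was 12 of 19 with a median of 0.07. With the Xist level as a covariate it was also 12 of 19, with a median of 0.08, and Kit 1415900_a_at then differed by 0.31, with a limma adjusted p of 0.783.

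For 15 of 19 melanocyte probe sets the range within each group was larger than the difference between the group means. Alox12b-KO array 4 was the highest of the 9 arrays for 10 of 19 melanocyte probe sets, for 19.9% of all probe sets, and for 26.1% of all dim ones. Wildtype array 5 was the lowest for 11 of 19, for 21.2% of all probe sets, and for 24.1% of all dim ones. Among the 14 dim melanocyte probe sets these counts were 6 and 7, and among the other 5 they were 4 and 4. Of all 16572 probe sets with a mean of 4 or more, the counts were 1534 and 2703. The median over all dim probe sets was 2.72 on Alox12b-KO array 4 and 2.51 on wildtype array 5.

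**Figure D1:**
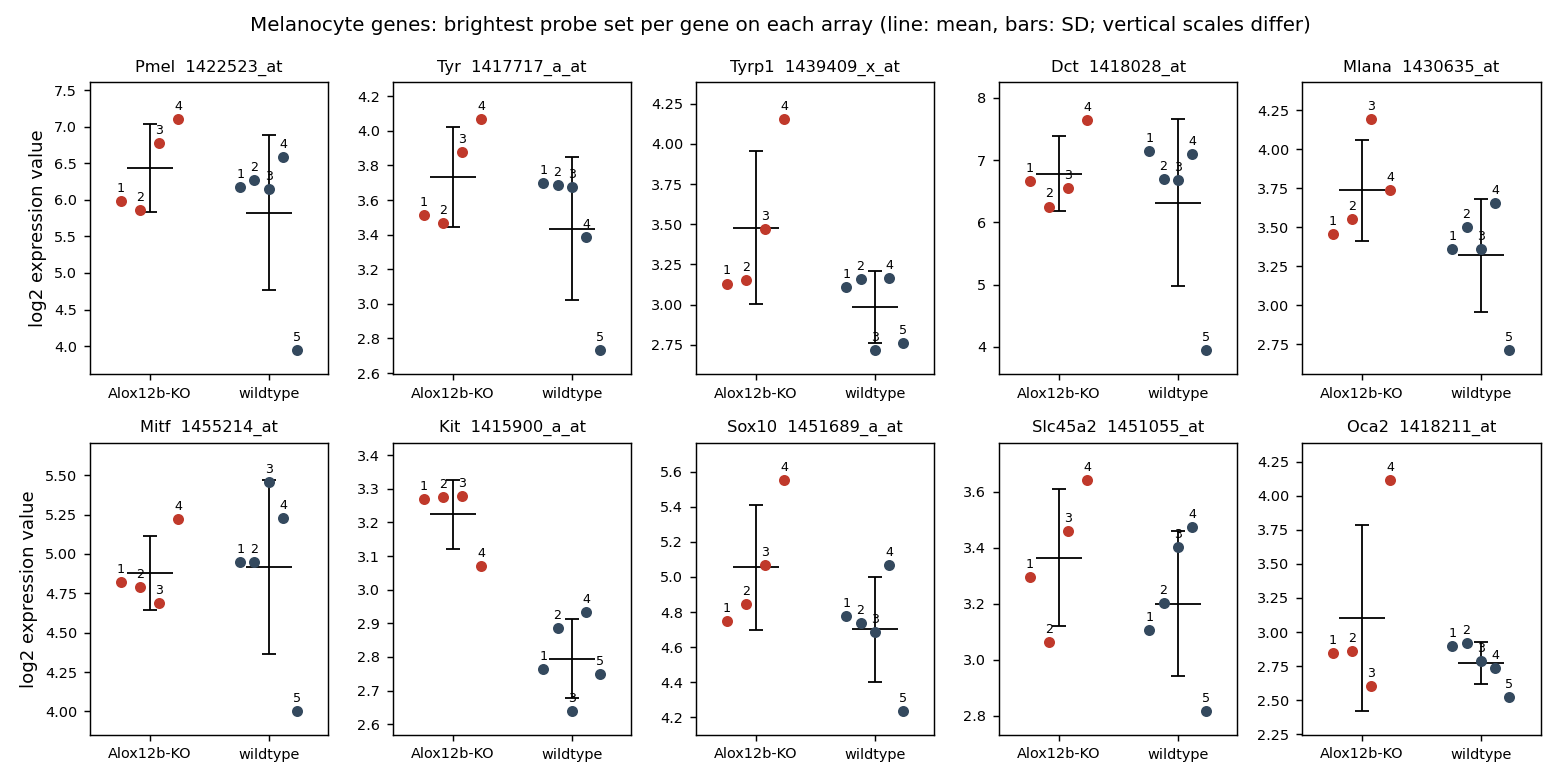
Log2 expression value of the brightest probe set of each of the 10 genes, with a point for every array numbered by replicate, Alox12b-KO at the left and wildtype at the right, and the mean with SD as line and bars. Alox12b-KO array 4 is the highest point in 7 of the 10 panels and wildtype array 5 the lowest in 8, and the groups are apart only for Kit.

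Pmel encodes the amyloid protein of the fibrils on which melanin is laid down. Its only probe set, 1422523_at, read 5.99, 5.86, 6.77 and 7.10 on Alox12b-KO arrays 1 to 4, against 6.18, 6.28, 6.15, 6.58 and 3.95 on wildtype arrays 1 to 5. Alox12b-KO arrays 3 and 4 were above every wildtype array, while Alox12b-KO arrays 1 and 2 were below every wildtype array other than array 5. The means were 6.43 ± 0.60 (SD, n = 4) in Alox12b-KO and 5.83 ± 1.06 (SD, n = 5) in wildtype, a difference of 0.60 with a 95% confidence interval of -0.47 to 1.68 and a limma adjusted p of 0.555. The difference was 0.13 without wildtype array 5 and 0.38 without Alox12b-KO array 4.

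Dct, dopachrome tautomerase, acts midway in eumelanin synthesis and is also a marker of melanoblasts. Probe set 1418028_at read 6.66, 6.25, 6.55 and 7.64 on Alox12b-KO arrays 1 to 4, against 7.15, 6.70, 6.69, 7.10 and 3.95 on wildtype arrays 1 to 5. The highest and the lowest array were again Alox12b-KO array 4 and wildtype array 5, and Alox12b-KO arrays 1 to 3 were all below the other 4 wildtype arrays. With all arrays the difference was 0.46 (95% confidence interval -0.83 to 1.76) and the limma adjusted p was 0.723. It was 0.17 without Alox12b-KO array 4, -0.13 without wildtype array 5, with a limma adjusted p of 0.864, and -0.42 without both of these arrays, with an adjusted p of 0.325. Of the arrays left out singly, only wildtype array 5 changed the sign of the Dct difference.

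Tyr, the rate-limiting oxidase of melanin synthesis, was dim on all 3 of its probe sets. The brightest, 1417717_a_at, read 3.52, 3.46, 3.88 and 4.07 on Alox12b-KO arrays 1 to 4, against 3.70, 3.69, 3.67, 3.39 and 2.73 on wildtype arrays 1 to 5. The groups overlapped, with the same lowest and highest array as for Pmel and Dct. The difference of 0.30 had a limma adjusted p of 0.511, and was 0.12 without wildtype array 5 and 0.18 without Alox12b-KO array 4. The other Tyr probe sets, 1448821_at and 1456095_at, read 2.12 to 2.91 and 2.10 to 2.78 in Alox12b-KO, against 2.20 to 2.61 and 1.93 to 2.49 in wildtype. Neither had its lowest value on wildtype array 5, and their differences were 0.02 and 0.27.

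Tyrp1, the third enzyme of the family, oxidises the product of Dct in the mouse. Its probe set 1439409_x_at read 3.13, 3.15, 3.47 and 4.15 on Alox12b-KO arrays 1 to 4, against 3.11, 3.16, 2.72, 3.17 and 2.76 on wildtype arrays 1 to 5. Alox12b-KO arrays 3 and 4 stood above all wildtype arrays, and arrays 1 and 2 lay among them. The means were 3.48 ± 0.48 (SD, n = 4) in Alox12b-KO and 2.98 ± 0.23 (SD, n = 5) in wildtype, a difference of 0.50 with an unadjusted p of 0.0374 and an adjusted p of 0.279 in limma. Without Alox12b-KO array 4 it was 0.27. The suffix of this probe set marks probes that can also bind other transcripts. The remaining Tyrp1 probe sets, 1415861_at and 1415862_at, gave differences of 0.13 and 0.31, and their limma adjusted p values were 0.796 and 0.474.

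Mlana encodes a melanosome membrane protein needed for Pmel maturation. Probe set 1430635_at read 3.46, 3.55, 4.19 and 3.74 on Alox12b-KO arrays 1 to 4, against 3.36, 3.50, 3.36, 3.66 and 2.71 on wildtype arrays 1 to 5. Here the highest value fell on Alox12b-KO array 3 and the lowest on wildtype array 5. The difference was 0.42 (95% confidence interval -0.03 to 0.87), with a limma adjusted p of 0.343, and 0.27 without wildtype array 5 or without Alox12b-KO array 3.

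The transporters Slc45a2 and Oca2 help to set the pH and ion balance of the melanosome. Slc45a2 probe set 1451055_at read 3.30, 3.06, 3.46 and 3.64 on Alox12b-KO arrays 1 to 4, against 3.11, 3.20, 3.40, 3.47 and 2.82 on wildtype arrays 1 to 5. These groups overlapped, with a difference of 0.16, and the second Slc45a2 probe set, 1437430_at, had a difference of 0.08. Their limma adjusted p values were 0.632 and 0.740. For 1451055_at the difference was 0.069 without wildtype array 5 and 0.072 without Alox12b-KO array 4. Oca2 probe set 1418211_at read 2.84, 2.86, 2.61 and 4.12 on Alox12b-KO arrays 1 to 4, against 2.90, 2.92, 2.79, 2.74 and 2.53 on wildtype arrays 1 to 5. Alox12b-KO array 4 alone was high for Oca2. Its difference of 0.33 had a limma adjusted p of 0.546 and was -0.0037 without that array.

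**Figure D2:**
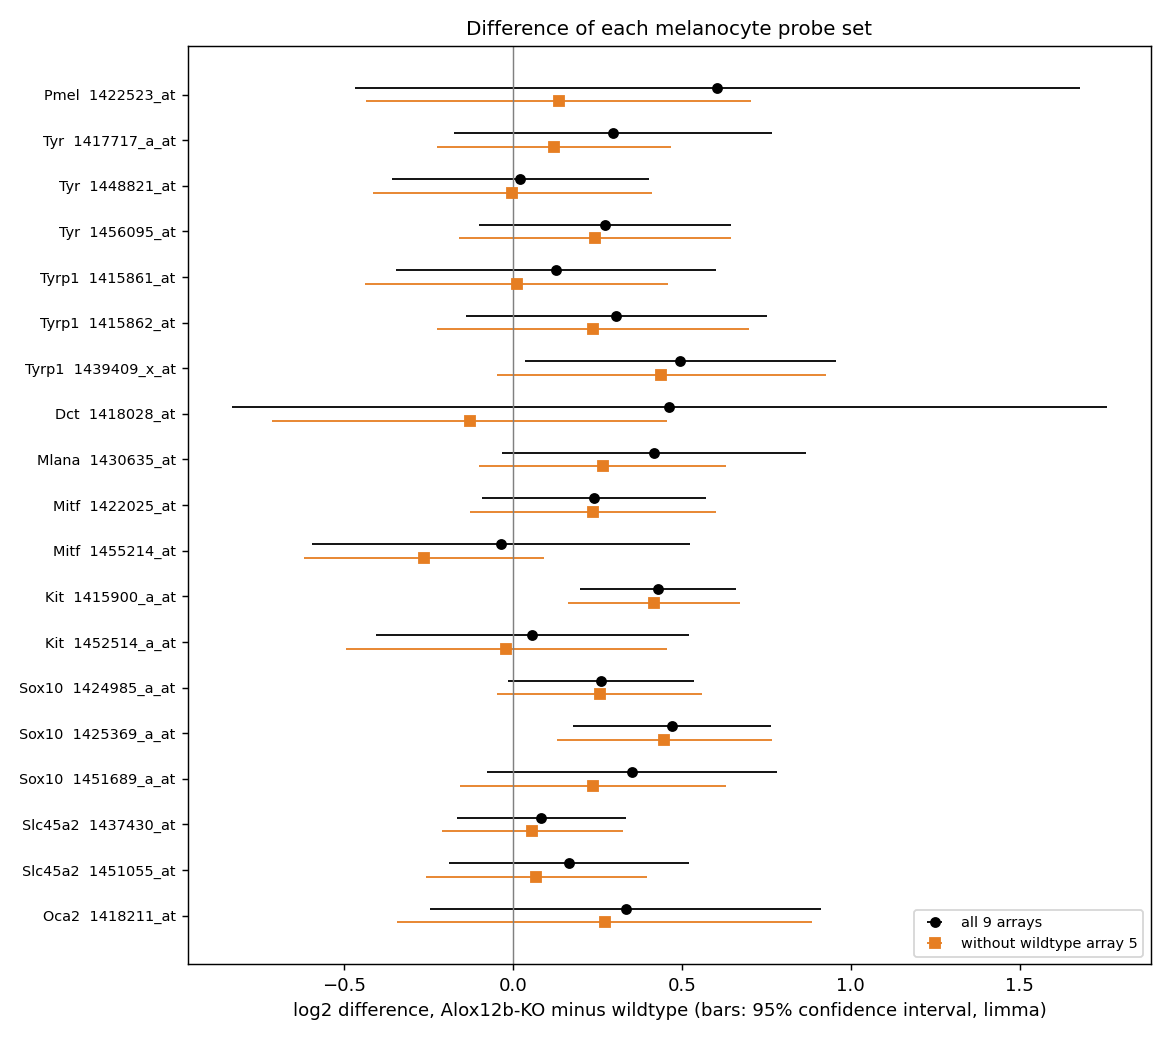
Log2 difference, Alox12b-KO minus wildtype, of each of the 19 melanocyte probe sets with its 95% confidence interval from limma, for all 9 arrays (black circles) and without wildtype array 5 (orange squares). The point of Dct moves from 0.46 to -0.13 when that array is left out, while the points of Kit 1415900_a_at and Sox10 1425369_a_at stay near 0.4.

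Sox10 is the neural crest factor upstream of Mitf and is also made by Schwann cells. Its brightest probe set, 1451689_a_at, read 4.75, 4.85, 5.07 and 5.55 on Alox12b-KO arrays 1 to 4, against 4.78, 4.74, 4.69, 5.07 and 4.24 on wildtype arrays 1 to 5. The groups overlapped, and the difference of 0.35 had a limma adjusted p of 0.396. It was 0.19 without Alox12b-KO array 4 and 0.016 with the Xist covariate. On probe set 1425369_a_at the values were 3.33, 3.51, 3.92 and 3.78 on Alox12b-KO arrays 1 to 4, against 3.13, 3.29, 3.25, 3.07 and 3.07 on wildtype arrays 1 to 5. There the groups did not overlap, and the difference of 0.47 had an unadjusted p of 0.00464 and an adjusted p of 0.127 in limma. The last Sox10 probe set, 1424985_a_at, differed by 0.26 with overlapping groups and a limma adjusted p of 0.335. All 3 Sox10 probe sets were higher on average in Alox12b-KO, and they read the same gene, so they are not separate evidence.

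Mitf is the master transcription factor of the lineage, and the gene has several promoters, only some of them used in melanocytes. Probe set 1455214_at read 4.82, 4.79, 4.69 and 5.22 on Alox12b-KO arrays 1 to 4, against 4.95, 4.95, 5.46, 5.23 and 4.00 on wildtype arrays 1 to 5. Wildtype array 5 was lowest, and the highest value was on wildtype array 3. This was the only melanocyte probe set with a difference below 0, at -0.04 with a limma adjusted p of 0.957, and -0.26 without wildtype array 5. The dimmer Mitf probe set 1422025_at read 2.06 to 2.83 in Alox12b-KO and 2.02 to 2.23 in wildtype, a difference of 0.24.

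Kit, the receptor tyrosine kinase of melanoblasts, is also a defining receptor of mast cells. Probe set 1415900_a_at read 3.27, 3.28, 3.28 and 3.07 on Alox12b-KO arrays 1 to 4, against 2.77, 2.89, 2.64, 2.93 and 2.75 on wildtype arrays 1 to 5. Every Alox12b-KO array was above every wildtype array. The means were 3.22 ± 0.10 (SD, n = 4) in Alox12b-KO and 2.80 ± 0.12 (SD, n = 5) in wildtype, a difference of 0.43 (95% confidence interval 0.20 to 0.66). The unadjusted p was 0.00181 and the adjusted p 0.0846 in limma, the lowest among the 19 probe sets. Alox12b-KO array 4, highest for most of the other genes, was the lowest of the Alox12b-KO arrays here, and wildtype array 5 lay within the wildtype range. The other Kit probe set, 1452514_a_at, did not follow it, with 2.42 to 3.27 in Alox12b-KO and 2.37 to 3.19 in wildtype and a difference of 0.06. Both Kit probe sets were dim, with highest values of 3.280 for 1415900_a_at and 3.273 for 1452514_a_at. Both stayed below 3.281, the highest value of the Y-linked probe sets without a target, which is no detection limit for another probe set. In all, groups were apart with Alox12b-KO higher for 2 of 19 melanocyte probe sets, beside 2.82% of all probe sets, and for 0 of 19 with Alox12b-KO lower, beside 4.36%.

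Other genes of the pigment pathway were read from 4 lists on the brightest probe set of each gene. Of the 46 measured genes, 0 passed in limma, where 1.24% of all 18193 genes did, and 8 had an unadjusted p under 0.05, where 17.8% of all genes did. Of these 8, 3 were higher and 5 lower in Alox12b-KO, where 7.08% and 10.7% of all genes were. The difference was above 0 for 25 of the 46 with a median of 0.07, beside 53.5% of all genes with a median of 0.02. Among 6 melanosome membrane and related genes 5 were above 0, with a median of 0.28. Mreg, the gene of melanoregulin in melanosome transfer, differed by -0.61 (limma adjusted p 0.123) and the copper pump gene Atp7a, which lies on the X chromosome, by 0.41 (0.387). Among 20 sorting and transport genes 9 were above 0, with a median of -0.04. Rab27a, the GTPase that ties melanosomes to myosin, differed by -0.80 (limma adjusted p 0.176) and Bloc1s6, a subunit of the BLOC-1 sorting complex, by -0.63 (0.0937). Both are also used by other cells of the epidermis. Bloc1s6 read 6.14 to 6.63 in Alox12b-KO and 6.86 to 7.53 in wildtype, without overlap. Ctnnb1, from the list of ligands and receptors, was also lower in Alox12b-KO without overlap, and for the other genes of the 4 lists the groups overlapped. Of all probe sets, 4.36% were lower without overlap. Among the 16572 with a mean of 4 or more, as for both of these genes, 1453 were.

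Ligands and receptors of the lineage gave no call either, with 4 of 9 measured genes above 0 and a median of -0.11. Edn1, an endothelin that keratinocytes secrete, read 7.19, 7.80, 3.86 and 6.57 on Alox12b-KO arrays 1 to 4, against 4.76, 5.62, 5.05, 5.20 and 5.47 on wildtype arrays 1 to 5. Alox12b-KO array 3 was below all wildtype arrays and the other Alox12b-KO arrays were above them. The difference of 1.14 had a limma adjusted p of 0.373, and without Alox12b-KO array 3 it was 1.97 with an adjusted p of 0.0134. Edn3, the endothelin that supports melanoblast expansion, differed by 0.92 (limma adjusted p 0.197), with its highest value on Alox12b-KO array 4 and its lowest, 4.28, on wildtype array 5. Kitl, the ligand of Kit, differed by -0.53 and the receptor gene Ednrb by -0.18, named after their values were seen. Of 11 transcription factors 7 were above 0, with a median of 0.08. The largest differences were those of Tfap2a and Snai2, which keratinocytes also express, at -0.71 and -0.69 with limma adjusted p values of 0.266 and 0.371. Both were highest on wildtype array 5, at 8.68 and 7.74.

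**Figure D3:**
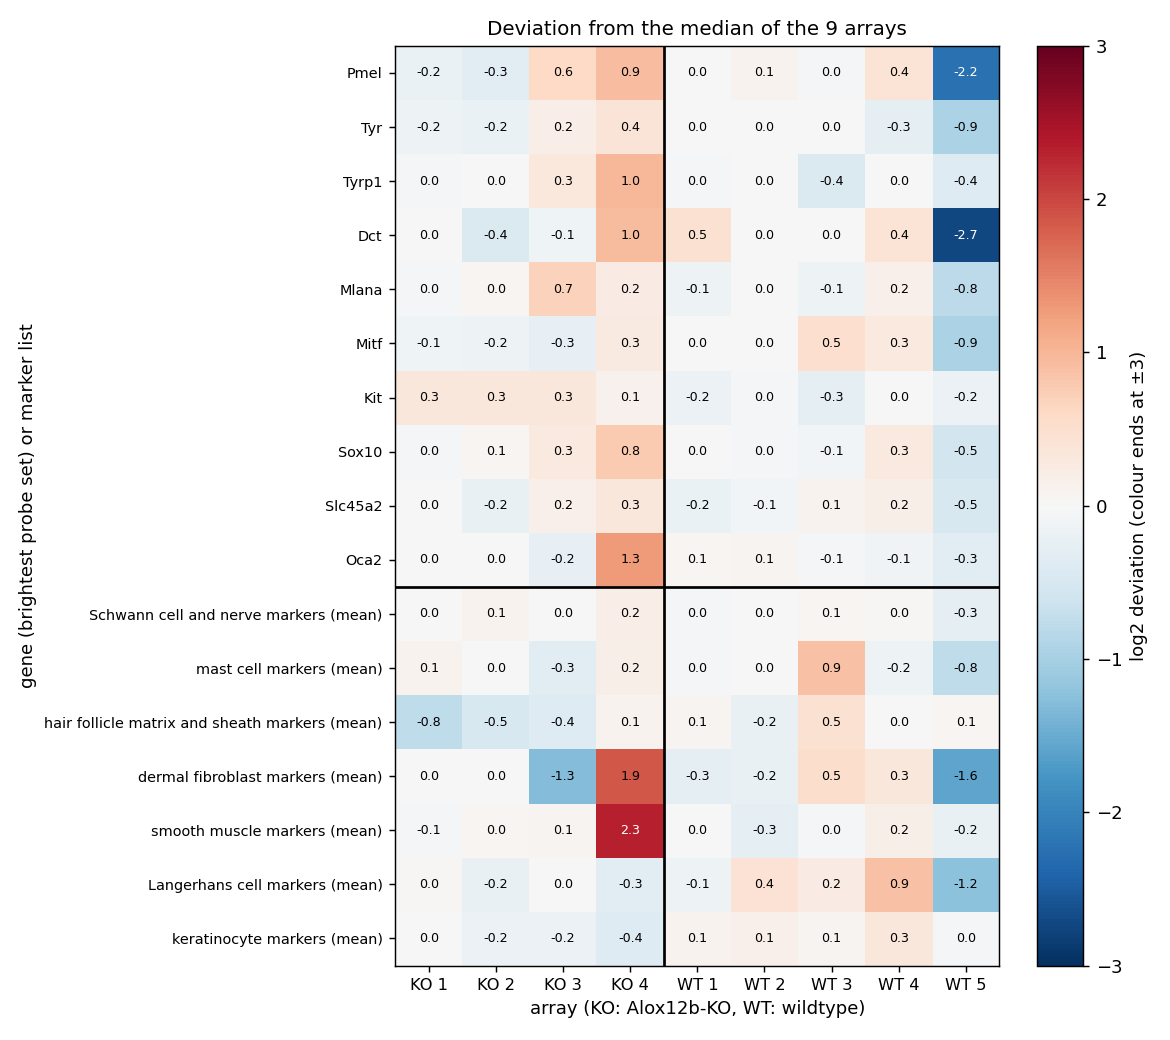
Log2 deviation of each array (columns, Alox12b-KO then wildtype) from the median of the 9 arrays, for the brightest probe set of the 10 melanocyte genes (upper rows) and the mean of the marker genes of other cell types (lower rows). Alox12b-KO array 4 is high for most melanocyte genes and for the fibroblast and smooth muscle lists, and wildtype array 5 is low for most melanocyte genes and for the fibroblast, Langerhans and mast cell lists.

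The mean of the fibroblast markers had the same extreme arrays as most melanocyte genes. The mean of the smooth muscle markers was high on Alox12b-KO array 4 only. Of 9 fibroblast markers none passed in limma and 9 were above 0, with a median difference of 0.37. The list mean was 5.50 to 8.65 in Alox12b-KO and 5.20 to 7.31 in wildtype, and its extremes were Alox12b-KO array 4 and wildtype array 5. Col1a2 and Lum, a collagen and a proteoglycan of the dermis, differed by 0.52 and 0.91. On Alox12b-KO array 3 the fibroblast mean was 5.50. Among the Alox12b-KO arrays, the brightest probe sets of Mlana and Kit were highest on this array. Those of Pmel, Tyr, Tyrp1, Sox10 and Slc45a2 were higher only on Alox12b-KO array 4. Dct, at 6.55, lay between its values on Alox12b-KO arrays 1 and 2. Oca2 and Mitf 1455214_at, at 2.61 and 4.69, were lower than on any other Alox12b-KO array. Of 8 smooth muscle markers none passed in limma and 8 were above 0, with a median difference of 0.62. The list mean was 5.84 on Alox12b-KO array 4, 3.45 to 3.59 on the other Alox12b-KO arrays and 3.24 to 3.68 on wildtype arrays. Tagln and Acta2, both highest on Alox12b-KO array 4, differed by 1.21 and 0.98. The part of dermal tissue in the melanocyte values was not tested.

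Cells that share genes with melanocytes were read in the same way. The 9 measured mast cell markers, which bear on Kit, had list means of 3.77 to 4.26 in Alox12b-KO and 3.33 to 4.97 in wildtype, with the highest mean on wildtype array 3, where Kit 1415900_a_at was lowest. The difference was above 0 for 4 of 9, with a median of -0.01, and Cpa3 and Gata2 differed by -0.45 and 0.38. The 9 Schwann cell markers, which bear on Sox10, had means of 5.02 to 5.24 in Alox12b-KO and 4.73 to 5.10 in wildtype, with the lowest on wildtype array 5. Here 7 of 9 were above 0, with a median of 0.22, and Pmp22 and Mbp differed by 0.41 and -0.39. No gene of either list passed in limma, and their part in the Kit and Sox10 values was not tested.

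Langerhans cell markers, 8 in number, had means of 6.03 to 6.37 in Alox12b-KO and 5.09 to 7.21 in wildtype, lowest on wildtype array 5. Of these 2 were above 0, with a median of -0.24, and H2-Aa and Cd74 differed by -0.48 and -0.38. The 11 hair follicle markers had means of 4.33 to 5.21 in Alox12b-KO and 4.88 to 5.55 in wildtype, and wildtype array 5, at 5.15, was not low for them. Their difference was above 0 for 2 of 11, with a median of -0.33. Tchh and Krt27, genes of the inner root sheath, differed by -1.36 and -1.16 with limma adjusted p values of 0.0556 and 0.231. The 10 keratinocyte markers had means of 10.86 to 11.26 in Alox12b-KO and 11.21 to 11.59 in wildtype, lowest on Alox12b-KO array 4. Of these 4 were above 0, with a median of -0.15. Trp63 and Krt15, which mark the basal layer, differed by -1.42 and -1.04, and the basal keratin genes Krt5 and Krt14 by -0.34 and 0.01. The differences of Krt5 and Krt14 depended on wildtype array 5, their lowest array, at 7.47 and 7.36. Trp63 was highest on that array, at 8.65, and Krt15, at 9.43, lay within its wildtype range. For Krt5 every Alox12b-KO array, at 8.41 to 8.70, was below all other wildtype arrays. For Krt14, Alox12b-KO array 1, at 9.19, was above wildtype array 3, at 9.11. Ivl and Lor, genes of the cornified envelope, differed by 0.50 (limma adjusted p 0.135) and 0.03, and Dsg1a differed by -0.58. Krt5, Krt14, Ivl, Lor and Dsg1a were named after their values were seen. None of these genes passed in limma.

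Genes with the most similar pattern over the arrays were looked up among all genes. For 7182 genes with a mean of at least 5, the deviations from the group means were compared with the mean deviation of Pmel, Tyr, Tyrp1, Dct and Mlana over the 9 arrays. The closest were Dab1, Tbxa2r, Lmo1, 4931408D14Rik, Pttg1 and Arhgef25, with Pearson r between 0.94 and 0.97, and between 0.77 and 0.94 over the 8 arrays without wildtype array 5. Wildtype array 5 was the lowest array for all 6. It was also the lowest, at 3.22, for the mean of the 5 genes they were chosen to match, so this is no separate observation. For 4931408D14Rik the values were 6.48, 7.11, 8.15 and 8.05 on Alox12b-KO arrays 1 to 4, against 7.08, 6.76, 6.44, 7.88 and 3.37 on wildtype arrays 1 to 5. These coefficients were chosen as the highest of many and describe only these arrays.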

How the data were processed

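Per the labels' protocols, 100 ng of total RNA was labelled with a 3′ in vitro transcription kit and hybridised to Affymetrix mouse arrays. The authors deposited log2 expression values of 45037 probe sets for 9 arrays, ranging from 1.43 to 14.46, with array medians of 3.14 to 3.31. Per the submitters' processing notes the affy package was used. How background, normalization and the summary of probes were handled is not stated in the sources used here. The number of arrays limits the precision. At most 124 probe sets were identical between 2 arrays of a group.

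Groups came from the sample titles. Probe sets were named from the platform annotation (34945 with 1 gene, 932 with several, 9160 unlisted), updated by gene number through the GRCm38.p6 table for 34741. All probe sets were fitted with limma (version 3.58.1, under R 4.3.3) by lmFit and eBayes, with genotype as the only term and no filter, with Benjamini-Hochberg adjustment over all of them. Pathway and marker lists were read from the same model fitted to the brightest probe set of 18193 genes. The code was tested on simulated data. Alternatives were other normalizations, a mean of at least 4, trend and robust eBayes, array weights, the Xist level or replicate number as a term, gene summaries, a threshold of 0.1 and each array left out. Leaving out Alox12b-KO array 4 and wildtype array 5 together, and keeping only the arrays with high Xist, were added after the data had been seen.

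Members and lists were chosen with earlier results of these data known. Every member was named. From each other list the genes past the threshold were to be named, or else the 2 with the largest absolute difference, and the 6 genes closest in pattern. List genes that the annotation did not name alone on any probe set were not analysed here.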

Additional observations from a re-analysis of the deposited data

Results flagged for a closer look

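In 7 of 38 checks, a group's highest or lowest array on a melanocyte probe set stood farther from its nearest neighbour, relative to the range of the group, than Dixon's 95% critical value, which chance exceeds in about 1 of 20 groups. Wildtype array 5 was low for Pmel 1422523_at, at 3.95 with the other wildtype arrays at 6.15 to 6.58, and for Dct 1418028_at, at 3.95 with the others at 6.69 to 7.15. Alox12b-KO array 4 was high for Oca2 1418211_at, at 4.12 with the others at 2.61 to 2.86, and low for Kit 1415900_a_at, at 3.07 with the others at 3.27 to 3.28. The remaining 3 were on the dimmer Tyr probe sets. On 1448821_at, Alox12b-KO array 3 read 2.91 and wildtype array 2 read 2.61, and on 1456095_at wildtype array 4 read 2.49. The 38 checks use the same arrays and some share a gene, so they are not independent. The share of all probe sets flagged by this rule was not computed.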

How the results depend on the processing

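The count of 0 called melanocyte probe sets held under every alternative but 2. With array weights and at a threshold of 0.1 it was 1, Kit 1415900_a_at, with a limma adjusted p of 0.0159 and a difference of 0.45 in the first. It was 0 without any single array. Of other pigment genes 3 passed with array weights (Bloc1s6, Mreg and Edn1), 1 at a threshold of 0.1 (Bloc1s6) and 1 without Alox12b-KO array 4 and wildtype array 5 (Atp7a), and 0 to 1 when single arrays were left out. All probe sets called numbered 498, and 18 with the Xist covariate, 2511 with array weights, 1219 at a threshold of 0.1, 1 on the arrays with high Xist alone, and 142 to 626 without single arrays. Among genes, 226 passed on 1 probe set each and 193 with probe sets averaged per gene.

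On the brightest probe set of the 10 member genes, Kit, Mlana and Tyrp1 kept their sign under every alternative in which they were tested, and with a mean of at least 4 only 5 of the 19 probe sets were. Dct turned to -0.13 with the replicate block, -0.42 with the Xist covariate, -0.20 with array weights, -0.42 without Alox12b-KO array 4 and wildtype array 5, and -0.32 on the arrays with high Xist. In the same order without the block, Pmel turned to -0.20, -0.064, -0.089 and -0.15 and Slc45a2 to -0.095, -0.030, -0.023 and -0.11. Tyr turned to -0.013 with array weights, Oca2 to -0.066 without those 2 arrays, Sox10 to -0.014 on the arrays with high Xist, and Mitf to 0.076 with quantile normalization and 0.10 with the mean of its probe sets. Without single arrays Dct ran from -0.13 to 0.67, Mitf from -0.26 to 0.10 and Oca2 from -0.0037 to 0.50. The cause of these turns was not tested. The Xist covariate and the arrays with high Xist rest on wildtype array 4 as the only wildtype array with high Xist.

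Replicate numbers 1 to 4 occur in both groups but nothing in the labels pairs them, and deviations of same-numbered arrays correlated between -0.18 and 0.20. With the replicate block 343 probe sets passed, among them 0 of the 19. No Alox12b-KO array has number 5, so the blocked differences leave out wildtype array 5.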
